A study of Mus musculus with 12 samples.

Results

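Mouse embryonic stem cells with a red and a green reporter were differentiated and sorted into 4 populations. The cells positive for only the red reporter were set against the cells positive for neither. The comparison used 6 of the 12 arrays of the series, namely the 3 titled red-positive and green-negative and the 3 titled negative for both, taken from the sample titles and described over all annotated genes. All cells came from embryoid bodies dissociated on day 6. These are aggregates formed in hanging drops, in which stem cells turn into early embryonic tissues. The sort read 2 transgenic reporters. A red protein, dsRed, was driven by a reporter specific for the second heart field, and a green protein, eGFP, by a cardiac-specific enhancer. The red-only group was positive for dsRed and negative for eGFP, and the double-negative group was negative for both. The double-positive and green-only groups, with 3 arrays each, entered the estimate of the spread and are set beside red-only cells near the end. No cell line, clone or strain and no sorting gate was named in the labels, and 1 population is misprinted in their description of the sort, so the titles decided the groups. Every group has 3 arrays, lettered A, B and C by experiment. Nothing in the labels says whether these are separate cultures, so the p-values measure only the spread between these arrays, which may be technical.

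The second heart field is a pool of mesodermal progenitors that keeps dividing behind the early heart tube and adds cells to the outflow tract and right ventricle. Its cells can become heart muscle, smooth muscle and endothelium, and they turn on transcription factors such as Isl1, Mef2c and Hand2 before the genes of the contractile apparatus. Cells of an embryoid body that are negative for both reporters are a mixture, in which undifferentiated cells, epithelium, endoderm, blood and other mesoderm can be present together.

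Signals are probe set intensities on a linear scale, 1 value per probe set and array, and values for single arrays are given in the order A, B, C. Array medians lay between 6.29 and 6.73 units over the 12 arrays. The ratio of the 3' to the 5' actin control, a sign of RNA quality, was 1.40, 1.48 and 1.32 on red-only and 1.36, 1.36 and 1.34 on double-negative arrays, so the groups overlapped. Pearson correlations of log2 values across genes, which are not independent replicates, were 0.990 to 0.993 among red-only arrays, 0.991 to 0.992 among double-negative arrays and 0.951 to 0.965 between them. The red-only array of experiment A stood apart for a small set of genes. It read over 1 log2 unit above both other red-only arrays for 18 genes, against 0 for red-only B and 2 for red-only C, and the 18 included the matrix and mesenchymal genes Col1a2, Col3a1, Tcf21 and Tnc. Neither reporter transcript is named by the probe set annotation, so the sort could not be checked on the reporters. The values of 4 other genes are described instead, which is no independent check of it. Fewer cells of a type and less RNA per cell cannot be told apart in such bulk samples.

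Of 13698 genes tested with limma, 3229 (23.6%) differed between red-only and double-negative cells at an adjusted p under 0.05. In red-only cells 1493 (10.9%) were higher and 1736 (12.7%) were lower. Changes of at least 2-fold were 258 upward and 201 downward, and those of at least 8-fold were 7 upward and 10 downward. The median log2 fold change of all genes was -0.02. The red-only arrays lay wholly above or below the double-negative arrays for 5188 genes (37.9%), and 3221 of the 3229 called genes (99.8%) moved the same way in each of the 3 experiments. Without experiment B in all groups 1766 genes passed, and without experiment C 1783, without experiment A 2713 passed, and leaving out any 1 of the 6 arrays gave 2535 to 2769. The main test did not pair the arrays by experiment letter. With the letter as a block over the 12 arrays 3887 genes passed.

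**Figure D1:**
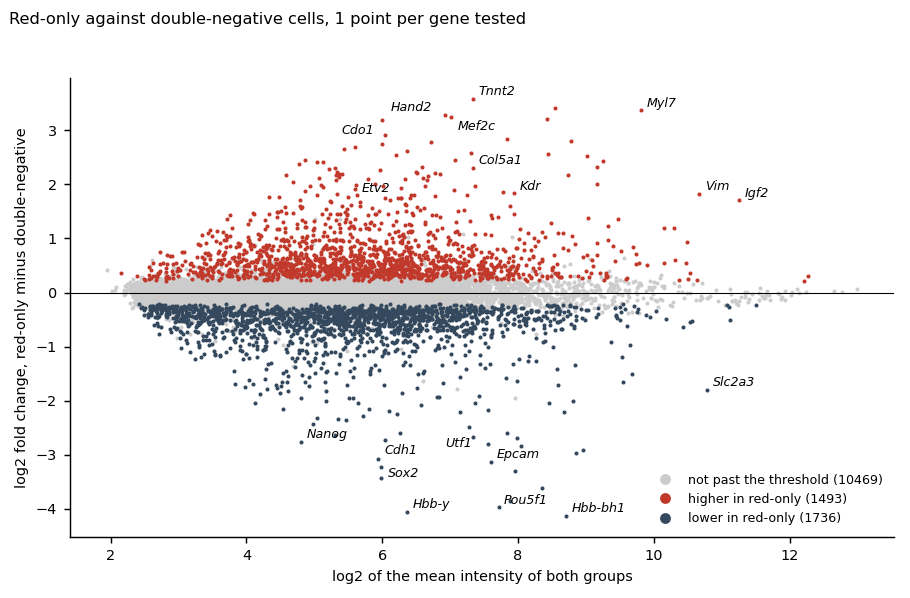
Log2 fold change of red-only minus double-negative cells (y axis) against the log2 mean intensity of the 6 arrays (x axis), 1 point per gene tested. Red points are the 1493 genes higher and dark points the 1736 genes lower in red-only cells at an adjusted p under 0.05; Tnnt2 is at the top and Hbb-bh1 at the bottom.

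The label of the red-only group was first set against 4 marker genes. Hand2, a transcription factor needed for the right ventricle and the pharyngeal mesoderm, read 186, 247 and 239 units on red-only arrays and 14.9, 20.1 and 22.9 on double-negative arrays. Every red-only array was several-fold above every double-negative array, and the log2 fold change was 3.29 ± 0.23 (SE; adjusted p = 9.91e-07). Mef2c, a muscle transcription factor of the same field, read 189, 246 and 271 against 13.9, 25.2 and 25.7, with a log2 fold change of 3.24 ± 0.22 (adjusted p = 8.28e-07). Again the groups did not overlap, and experiment A gave the lowest value in both of them. Col5a1, a chain of a fibril-forming collagen, read 275, 264 and 278 against 41.7, 52.3 and 62.8. The red-only arrays were nearly alike for it, and the difference of 2.31 ± 0.16 was far larger than the spread in either group (adjusted p = 9.91e-07). Etv2, the factor that opens the endothelial and blood program in mesoderm, read 68.99, 84 and 83.5 against 17.3, 22.7 and 19.3 (log2 fold change 1.796 ± 0.16, adjusted p = 6.39e-06). The differences in experiments A, B and C were 3.32, 3.37 and 3.17 for Hand2, 3.43, 3.09 and 3.21 for Mef2c, 2.61, 2.25 and 2.08 for Col5a1 and 1.77, 1.71 and 1.90 for Etv2 on the log2 scale. Hand2, Mef2c and Col5a1 have further probe sets on the array, and each of these passed the threshold in the same direction. The 4 markers were chosen with earlier results of these data known, so their direction is a description and no independent check of the label.

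**Figure D2:**
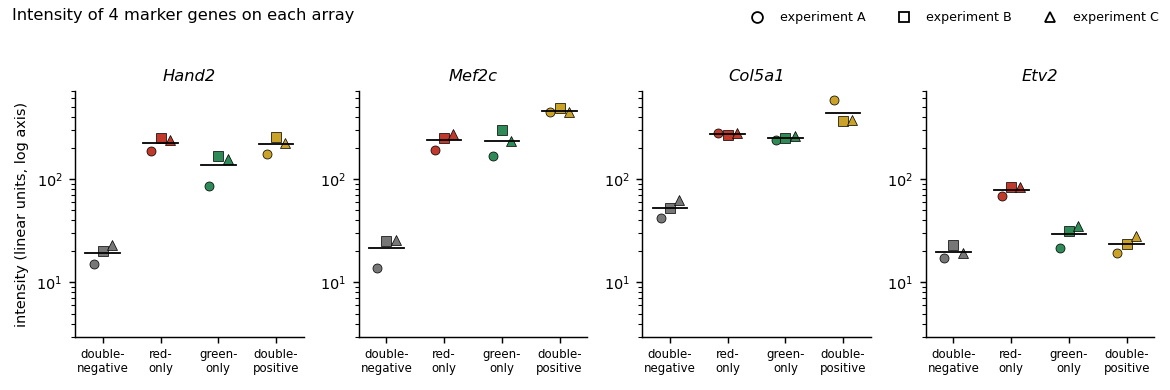
Intensity (y axis, linear units on a log axis) of Hand2, Mef2c, Col5a1 and Etv2 on each of the 12 arrays, by population (x axis); the symbol gives the experiment and the bar the mean of 3 arrays. For each gene the red-only arrays lie above all double-negative arrays, and for Etv2 they also lie above the green-only and double-positive arrays.

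Transcription factors of the heart were higher in red-only cells as a group. Of 22 listed, 20 passed the filter on low values. Of these 17 were higher and 0 lower, with a median log2 fold change of 1.25, against -0.02 for all genes and 10.9% of genes called higher. Besides Hand2 and Mef2c the largest changes were those of Myocd, Tbx20 and Smarcd3. Myocd, the coactivator that turns on muscle genes through serum response factor, read 88.6, 78.9 and 94.2 against 13.1, 8.44 and 8.94 (log2 fold change 2.69 ± 0.11, adjusted p = 2.70e-08). Tbx20, a T-box factor of the heart, read 61.2, 61.9 and 60.7 against 8.297, 6.38 and 10.3, so the red-only arrays differed by barely more than 1 unit among themselves (log2 fold change 2.41 ± 0.12, adjusted p = 9.02e-08). Smarcd3, the heart-enriched subunit of the BAF chromatin remodelling complex, rose by 2.32 ± 0.16, Gata6 by 2.11 ± 0.14 and Gata4 by 1.44 ± 0.11. Not all regulators followed. Tbx5, a factor of the left ventricle and atria, read 17.5, 22.2 and 17.6 in red-only and 21.4, 21.3 and 19.4 in double-negative cells, and its log2 fold change of -0.103 ± 0.09 did not pass (adjusted p = 0.489). Tbx3 and Irx4, factors of the conduction system and of ventricular muscle, likewise did not pass, at -0.01 ± 0.12 and 0.101 ± 0.18.

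Among genes of the second heart field, 12 of 18 tested were higher and 0 lower (median 0.85), against 10.9% and 12.7% of all genes. This list shares members with that of heart transcription factors, so these counts are not separate. Nrp1, a semaphorin and VEGF coreceptor of the outflow tract and of endothelium, read 138, 164 and 153 against 22.8, 33.5 and 31.3 (log2 fold change 2.23 ± 0.15, adjusted p = 6.76e-07). Foxc2, a forkhead factor of this mesoderm, read 64.3, 93.9 and 82.1 against 10.7, 18.6 and 22.9 and Bmp4, a growth factor of the outflow tract, 139, 108 and 157 against 21.4, 37.1 and 52.99. Both groups were apart for each gene, with log2 fold changes of 1.996 ± 0.31 and 1.81 ± 0.25. The 6 members that did not pass included Tbx1, at 20.8, 14.4 and 10.6 against 12.3, 11.9 and 15.8, and Fgf8, at 25.5, 16.9 and 36.7 against 21.7, 24.1 and 37.3, where the groups overlapped. Tbx1 and Fgf8 are a transcription factor and a growth factor of the pharyngeal part of this field.

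Contractile genes made up 7 of the 15 largest increases. Of 30 tested members of the sarcomere list 20 were higher and 0 lower, with a median of 1.39, against 10.9% and 12.7% of all genes. Tnnt2, cardiac troponin T, which ties the calcium switch to the thin filament, read 274, 247 and 384 against 28.5, 15.2 and 21.1. Its log2 fold change of 3.58 ± 0.20 was the largest increase of all genes that met the naming rule (adjusted p = 1.79e-07). Tnni1, the troponin I form of embryonic muscle, read 619.7, 631 and 809 against 54.2, 61.4 and 64.6 (log2 fold change 3.42 ± 0.15, adjusted p = 2.70e-08). Myl7, the atrial regulatory light chain found in all early heart muscle, read 1347, 1517 and 2075 against 185, 129.6 and 149 (log2 fold change 3.37 ± 0.17, adjusted p = 7.81e-08). For each of these 3 genes red-only C was the highest array, and the groups were far apart. Myl4, Ttn, Myh7 and Actc1, which code for an embryonic and atrial light chain, the giant spring protein titin, the slow myosin heavy chain and cardiac actin, rose by 3.21, 2.91, 2.84 and 2.80. Actc1 shows how the experiments differed: it read 844, 504 and 956 in red-only and 157, 77.6 and 88.95 in double-negative cells, with red-only B lowest, and the difference within each experiment was 2.40, 2.64 and 3.37. Myl4 has another probe set that did not pass. The probe set of Tnnt2 may also take up related transcripts, and its other 2 probe sets passed in the same direction.

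Several genes of later muscle stayed near background in both groups. Tnni3, the troponin I of the mature heart, read 11.2, 8.25 and 17.5 against 10.5, 7.25 and 8.38, and its groups overlapped (log2 fold change 0.33 ± 0.29, adjusted p = 0.49). Tcap, Smpx and Cryab, proteins of the Z-disc and of muscle stress, did not pass either. Tnnt1, slow skeletal troponin T, read 18.1, 9.897 and 15.1 against 41.97, 22.5 and 31.8. It was lower in every experiment but did not pass (log2 fold change -0.96 ± 0.50, adjusted p = 0.204), and it passed with the experiment as a block (adjusted p = 0.0125).

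The sequences just upstream of 4 genes are shown as examples. Myl7 and Actc1 are among the largest increases and were picked because theirs are the windows of that group with a CArG box. The embryonic globin genes Hbb-y and Hba-x are among the largest decreases and were picked because they fell together. Each window runs from 250 bases before to 50 bases after the start of the RefSeq gene (GRCm38.p6). Windows were found for 13 of the 17 genes named as markers or largest increases and for 12 of the 15 largest decreases. Capitals in Myl7 and Actc1 mark the CArG box, the site bound by serum response factor, and in Myl7 also GATAA, the core of the site of GATA factors. In the globin windows GATAA is marked again. Also marked there is CACCC, the site of Krüppel-like factors such as Klf1, and in Hba-x the promoter motif TATAAA. Motifs were searched on both strands, so a match may be printed as its reverse complement, and those marked do not overlap one another.
Myl7, chr11:5898733-5899032, minus strand: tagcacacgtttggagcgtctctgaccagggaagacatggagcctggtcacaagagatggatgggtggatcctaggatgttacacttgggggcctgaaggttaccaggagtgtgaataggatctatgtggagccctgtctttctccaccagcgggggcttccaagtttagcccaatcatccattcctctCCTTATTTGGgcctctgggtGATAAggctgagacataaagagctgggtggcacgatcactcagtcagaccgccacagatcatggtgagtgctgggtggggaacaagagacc
Actc1, chr2:114052826-114053125, minus strand: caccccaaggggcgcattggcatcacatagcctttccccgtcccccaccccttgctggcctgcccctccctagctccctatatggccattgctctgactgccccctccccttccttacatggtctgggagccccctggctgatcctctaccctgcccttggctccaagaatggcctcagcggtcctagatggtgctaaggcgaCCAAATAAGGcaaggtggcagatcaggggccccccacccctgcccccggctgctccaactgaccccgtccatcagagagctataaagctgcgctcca
Hbb-y, chr7:103853158-103853457, minus strand: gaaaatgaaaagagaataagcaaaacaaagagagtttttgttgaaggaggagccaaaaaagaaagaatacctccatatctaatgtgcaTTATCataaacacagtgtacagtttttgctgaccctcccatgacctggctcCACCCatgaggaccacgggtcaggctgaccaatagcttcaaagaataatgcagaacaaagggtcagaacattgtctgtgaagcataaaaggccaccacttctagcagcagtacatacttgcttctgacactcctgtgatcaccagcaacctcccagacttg
Hba-x, chr11:32276350-32276649, plus strand: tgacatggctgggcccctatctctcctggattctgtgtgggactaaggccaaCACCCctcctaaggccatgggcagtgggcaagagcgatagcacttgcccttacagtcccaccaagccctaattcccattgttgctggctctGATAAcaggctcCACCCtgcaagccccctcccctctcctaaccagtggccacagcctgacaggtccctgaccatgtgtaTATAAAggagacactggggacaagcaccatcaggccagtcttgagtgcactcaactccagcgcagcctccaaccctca

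The CArG box begins 61 bases before the start in Myl7 and 47 bases before it in Actc1. These distances are from the RefSeq start, and in Actc1 an unmarked TATAAA lies 33 bases after that start. A CArG box was in a window of 2 of the 13 genes of the increases and 0 of the 12 of the decreases, against 1.63% of all 32841 windows. GATAA was found for 5 of the 13 genes and 3 of the 12, against 25.4% of all windows. CACCC was found for 10 of the 13 genes and 9 of the 12, against 57.5%, and TATAAA for 2 and 1 (13.6% of all windows). A MEF2 site was found for 1 and 0 (3.19%) and the octamer ATGCAAAT for 0 and 1 (1.74%). Some genes have several windows and counted if any had the motif, which raises these counts against a share of single windows. In Hba-x the order of the marked motifs from the start outward is TATAAA at 28, CACCC at 95, GATAA at 107 and CACCC at 198 bases before it. These are matches of letters in short windows, and no binding was measured here.

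Of 16 calcium handling and ion channel genes tested, 4 were higher and 1 was lower, with a median of 0.18, against 10.9% and 12.7% of all genes. Without experiment C in all groups 1 was higher. Hrc, a calcium-binding protein of the sarcoplasmic reticulum, read 46.9, 55.4 and 77.4 against 30.03, 18.3 and 18.8 (log2 fold change 1.27 ± 0.23, adjusted p = 0.00121), and Kcnh2, a repolarising potassium channel, read 48.3, 38.3 and 55.95 against 28.9, 24.6 and 21.5 (log2 fold change 0.82 ± 0.15). The call of Kcnh2 was lost without experiment C in all groups (adjusted p = 0.0735). Ryr2, the calcium release channel, read 8.58, 8.08 and 11.6 against 7.62, 6.71 and 4.25, and Pln and Sln, which restrain the calcium pump, stayed under 8 units on all 6 arrays of the comparison. None of these 3 passed. Gja1, the gap junction protein connexin 43, went the other way. It read 159, 171 and 163 in red-only and 393, 386 and 432 in double-negative cells (log2 fold change -1.27 ± 0.30, adjusted p = 0.00788), and the groups did not overlap. The call of Gja1 was lost without experiment B or C in all groups (adjusted p up to 0.0799).

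Of 11 smooth muscle genes tested, 3 were higher and 0 lower (median 0.15), against 10.9% and 12.7% of all genes. Acta2, the smooth muscle actin that early heart muscle also makes, read 1129, 762 and 1198 against 219.9, 156 and 180.1 (log2 fold change 2.43 ± 0.17, adjusted p = 8.30e-07), although 2 further probe sets of the gene did not pass. Des, the intermediate filament of muscle, and Itga8, an integrin, were the others. Tagln, a defining smooth muscle gene, read 60.1, 28.9 and 40.99 against 65.6, 61.2 and 62.2, and its log2 fold change of -0.55 ± 0.45 did not pass. Cnn1 overlapped between the groups at 19.5, 11.7 and 30.9 against 17.9, 11.6 and 18.1, and Myh11 was below the filter on low values.

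Part of the endothelial genes were higher in red-only cells. Of 16 regulators of the endothelial and blood lineages tested, 9 were higher and 1, the forkhead factor Foxo1, was lower, with a median of 0.56. Of all genes 10.9% were called higher and 12.7% lower. The count of 9 fell to 5 without red-only B, to 4 without double-negative A and to 5 without double-negative B. Etv2, Ets1, Lmo2 and Elk3 kept their calls whichever of the 6 arrays was left out. Lmo2, a bridging protein shared by endothelial and blood precursors, read 85.2, 129 and 142 against 23.4, 33.9 and 40.03 (log2 fold change 1.74 ± 0.26, adjusted p = 0.000382). Ets1 read 94.3, 70.9 and 50.8 against 12.8, 19.2 and 22.4 (log2 fold change 1.76 ± 0.28). Erg, a factor of formed endothelium, read 8.14, 10.2 and 8.82 against 7.76, 8.599 and 10.04. Lyl1, a factor of blood and vessels, read 9.45, 11.8 and 12.1 against 11.4, 10.1 and 11.3. The groups overlapped for both.

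Of 19 endothelial receptor and surface genes 7 were higher and 0 lower (median 0.69), against 10.9% and 12.7% of all genes. With the experiment as a block 10 were higher. Kdr, the main VEGF receptor and a marker of cardiovascular mesoderm, read 319.8, 465 and 369.5 against 67.4, 124 and 133 (log2 fold change 1.83 ± 0.35, adjusted p = 0.00216). Tek, the angiopoietin receptor, read 64.8, 98.9 and 75.3 against 15.1, 30.3 and 22.3 (log2 fold change 1.67 ± 0.36, adjusted p = 0.00398), and Cd34, a sialomucin of vessels and progenitors, 43.3, 32.3 and 27.01 against 4.77, 10.1 and 15.3 (log2 fold change 1.49 ± 0.30). The call of Tek was lost without experiment C in all groups (adjusted p = 0.0606). For Kdr and Tek, array A was lowest in both groups. Cdh5 and Plvap, a junction and a diaphragm protein of endothelium, were higher in each experiment but passed only with the block. Cdh5 read 38.7, 50.6 and 45.5 against 9.45, 22.4 and 24.7 (adjusted p = 0.0504, and 0.0031 with the block), and Plvap 77.5, 149 and 107 against 40.6, 50.9 and 62.2 (0.0694 and 0.00703). Pecam1, Flt1 and Cldn5, further defining genes of endothelium, had log2 fold changes of 0.26, -0.01 and -0.01, which did not pass with or without the block.

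The embryonic globins were among the 4 largest decreases. Hbb-bh1, an embryonic beta-like globin of yolk sac red cells, read 34.9, 21.5 and 79.3 in red-only and 578, 653 and 1149 in double-negative cells (log2 fold change -4.12 ± 0.45, adjusted p = 3.25e-05). Hbb-y, another such globin, read 6.06, 4.73 and 5.65 against 197, 108 and 174, so that red-only cells were under the lowest array median (log2 fold change -4.06 ± 0.18, adjusted p = 2.70e-08). Hba-x, the embryonic alpha-like globin, read 27.4, 15.4 and 39.2 against 438, 288 and 612 (log2 fold change -3.85 ± 0.31, adjusted p = 2.81e-06). Among red-only arrays B was the lowest for each of these globins, and the groups were at least several-fold apart. Of 11 blood genes tested 5 were lower and 0 higher, with a median of -0.50, against 12.7% of all genes called lower. The median was -0.30 without double-negative C, -0.26 without experiment C in all groups and -0.20 with no filter on low values. Summed over the 15 genes of the list, the level was 161 to 240 units on red-only arrays and 1184 to 2106 on double-negative arrays. On double-negative arrays most of that sum came from the globins. Gata1, a red cell regulator, read 5.51, 5.99 and 6.25 against 8.21, 6.13 and 6.68. Klf1, another, read 12.4, 12.7 and 11.8 against 12.8, 13.4 and 18.2. Both were low in each group and did not pass. Alas2, the heme synthesis enzyme of red cells, read 4.48, 7.32 and 6.15 against 9.33, 9.29 and 12.1 (log2 fold change -0.51 ± 0.11, adjusted p = 0.00433). The call of Alas2 was lost without experiment C in all groups (adjusted p = 0.0833).

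Matrix genes were higher in red-only cells. Of 23 tested 15 were higher and 1 was lower, with a median of 1.09, against 10.9% and 12.7% of all genes. The lower count, the matricellular protein Thbs1 alone, fell to 0 without red-only B or double-negative C. Hapln1, which links hyaluronan to proteoglycans in the cardiac jelly, read 124, 145 and 113 against 10.5, 21.4 and 26.8 (log2 fold change 2.54 ± 0.34, adjusted p = 0.000155). Vcan, the versican proteoglycan of the same jelly, read 211, 163 and 174 against 26.1, 48.8 and 36.9 (log2 fold change 2.21 ± 0.18, adjusted p = 3.25e-06). Col5a2, the partner chain of Col5a1, read 191, 210.2 and 174 against 33.3, 41.1 and 41.5 and rose by 2.197 ± 0.14 (adjusted p = 6.94e-07). For each of these 3 genes the groups did not overlap. Col3a1, a fibrillar collagen, read 384, 74.5 and 73.4 against 34.05, 23.9 and 21.4, with red-only A far above both other red-only arrays. Its log2 fold change of 2.15 ± 0.47 (adjusted p = 0.00462) was 1.38 without that array (adjusted p = 0.000802). Tnc, an adhesion-modulating matrix protein, was likewise highest on red-only A, at 115, 41.6 and 34.7 against 16.7, 17.6 and 23.8 and did not pass (adjusted p = 0.0633). It passed with the block (adjusted p = 0.00597). Postn, Dcn and Lox, genes of later fibroblasts and valves, were at or under 10 units on every array and did not pass.

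Genes of the mesenchymal state were higher and genes of the epithelial state lower. Of 17 mesenchymal regulators and adhesion genes tested 15 were higher and 0 lower (median 0.86, or 1.45 with the filter at the 60th percentile), and of 20 epithelial genes 17 were lower and 0 higher (median -1.30). Of all genes 10.9% were called higher and 12.7% lower. Twist1, a repressor of the epithelial state, read 52.7, 52.6 and 54.3 against 7.49, 15.4 and 15.7 (log2 fold change 1.797 ± 0.21, adjusted p = 5.26e-05), and the red-only arrays were within 2 units of each other. Snai2, another such repressor, read 53.04, 44.05 and 33.9 against 13.6, 9.97 and 11.02 (log2 fold change 1.598 ± 0.15, adjusted p = 1.09e-05). Vim, the intermediate filament of mesenchyme, read 2300.1, 2852 and 2469 against 569, 760.1 and 823 (log2 fold change 1.83 ± 0.24) and Cdh11, a mesenchymal cadherin, 59.7, 49.4 and 44.4 against 6.87, 9.31 and 14.3 (log2 fold change 1.98 ± 0.19). On the epithelial side Epcam, an adhesion protein of embryonic epithelium and stem cells, read 46.4, 20.98 and 49.02 against 372, 333 and 347 (log2 fold change -3.12 ± 0.36, adjusted p = 5.66e-05). Cdh1, or E-cadherin, read 12.99, 5.87 and 11.2 against 106, 111 and 119 (log2 fold change -3.08 ± 0.34, adjusted p = 3.82e-05). Cldn6 and Cldn7, claudins of tight junctions, fell by 2.84 and 2.59, and Esrp1, the splicing factor of epithelial cells, by 2.63. For Epcam, Cdh1 and Cldn6 red-only B was the lowest of the 6 arrays. Another probe set of Epcam did not pass. Dsp, a desmosome gene that heart muscle also uses, overlapped between the groups at 47.8, 27.3 and 27.3 against 32.2, 33.04 and 29.8.

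**Figure D3:**
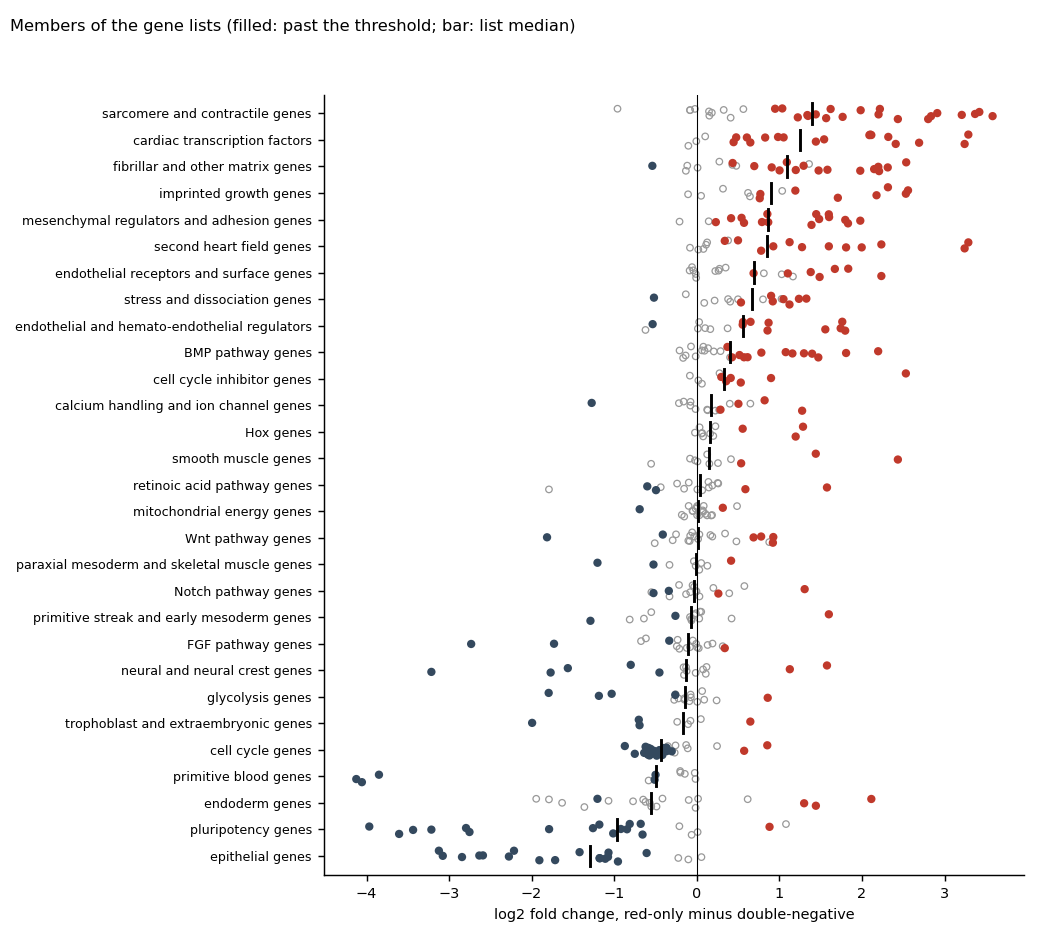
Log2 fold change of red-only minus double-negative cells (x axis) for each tested member of 29 gene lists (y axis); filled points passed the threshold, open points did not, and the black bar is the list median. Sarcomere genes have the highest median (1.39) and epithelial genes the lowest (-1.30).

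Pluripotency genes were low in red-only cells. Of 20 tested 15 were lower and 1 higher, with a median of -0.97, against 12.7% and 10.9% of all genes. The higher count, Klf4 alone, fell to 0 without red-only B or C or any 1 of the double-negative arrays. Pou5f1, which codes for the stem cell factor Oct4, read 28.1, 14.1 and 24.2 against 408, 456 and 329 (log2 fold change -3.97 ± 0.23, adjusted p = 2.58e-07). Sox2, its partner and also a neural factor, read 11.96, 6.11 and 9.18 against 133, 118 and 100.1 (log2 fold change -3.21 ± 0.20, adjusted p = 5.51e-07). Nanog, the third core factor, read 4.19, 3.87 and 4.06 against 39.5, 64.3 and 51.3, so that red-only cells were under every array median (log2 fold change -2.75 ± 0.13, adjusted p = 4.90e-08). Dppa5a and L1td1, RNA-binding proteins of stem cells, fell by 3.61 and 3.44. Utf1, a chromatin protein of stem cells, read 47.8, 40.7 and 44.3 against 401, 294 and 307 (log2 fold change -2.79 ± 0.11), with 1 of its other 2 probe sets passing. Outside the list, Dnmt3b, the enzyme that lays down new DNA methylation, read 126, 93.3 and 120.03 against 891, 1019 and 736 (log2 fold change -2.92 ± 0.25, adjusted p = 4.14e-06). Esrrb, Fgf4 and Gdf3, further stem cell genes, did not pass, with log2 fold changes of 0.01, -0.21 and -0.06. Klf2, a factor shared by stem cells and endothelium, read 109, 273 and 218 against 53.8, 125 and 94.5, higher in each experiment. It did not pass (adjusted p = 0.161) but did with the block (adjusted p = 0.00311).

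Secreted products of endoderm differed widely between experiments. Of 20 endoderm genes tested 3 were higher and 1 was lower, against 10.9% and 12.7% of all genes, and with the experiment as a block 4 were higher and 7 lower. The single lower gene, the endoderm factor Foxa2, lost its call without any array but red-only A, and 2 other genes passed as lower without double-negative B. The 3 that rose were Gata6, Gata4 and Lama1, of which the GATA factors are also heart genes. Rbp4, the plasma carrier of retinol, read 90.3, 15.9 and 69.9 in red-only and 389, 72.9 and 187 in double-negative cells. Apoa1, a lipoprotein of yolk sac and liver, read 62.8, 19.2 and 50.9 against 238, 64.8 and 148, and Ttr, a thyroid hormone carrier, 56.3, 25.8 and 46.8 against 171, 39.7 and 107. In both groups experiment A was highest and B lowest for all 3, and in each experiment the red-only array was lower. The differences were -2.06, -1.94 and -1.37 for Rbp4 and -1.86, -1.57 and -1.47 for Apoa1 in A, B and C. Adjusted p was 0.133 for Rbp4, 0.0649 for Apoa1 and 0.269 for Ttr without the block, and 0.000106, 0.000287 and 0.00823 with it. The summed level of the list ran from 919 to 2389 units over the double-negative arrays and from 1192 to 1574 over the red-only arrays.

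**Figure D4:**
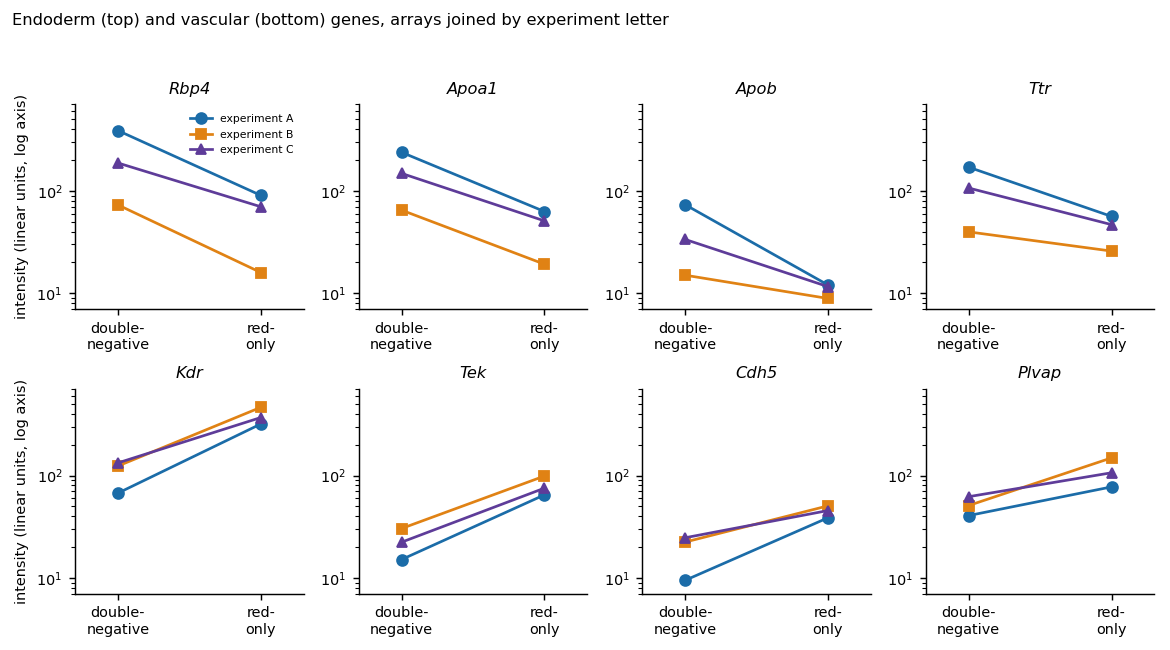
Intensity (y axis, linear units on a log axis) on the double-negative and red-only arrays (x axis), joined by experiment letter, for 4 endoderm genes (top) and 4 vascular genes (bottom). Rbp4, Apoa1, Apob and Ttr fall and Kdr, Tek, Cdh5 and Plvap rise along each line, while experiment B is lowest for the endoderm genes in both groups and experiment A is lowest for the vascular genes in both groups.

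Genes of further lineages were called in both directions, beside 10.9% of all genes called higher and 12.7% called lower. Of 15 neural and neural crest genes 5 were lower and 2 higher (median -0.13). Stmn2, a neuronal microtubule protein, read 19.4, 26.2 and 20.7 against 83.2, 64.8 and 71.6 (log2 fold change -1.56 ± 0.15, adjusted p = 9.85e-06), and Otx2, a factor of anterior embryo and brain, 51.2, 29.2 and 38.5 against 166, 132 and 130.2 (log2 fold change -1.77 ± 0.33). Pax6, Sox1 and Pax3, defining factors of neural tissue, were under 10 units on all 6 arrays and did not pass. Ncam1 and Crabp1 were the 2 higher members. Crabp1, a retinoic acid-binding protein, read 16.2, 53.8 and 45.7 against 8.997, 7.94 and 9.91, with red-only A well under both other red-only arrays. The call of Crabp1 was lost without experiment B or C in all groups (adjusted p up to 0.106). Among 15 genes of the primitive streak and early mesoderm 1 was higher, Foxc1, and 2 were lower, and with the block 4 were lower. Evx1, a homeobox factor of the streak, was the lower gene that depended on single arrays, since it lost its call without red-only B or C or double-negative A or C. Mesp1, the early marker of heart mesoderm, read 10.01, 10.8 and 9.51 against 10.3, 10.5 and 9.81, and Mixl1 5.38, 6.004 and 6.18 against 6.004, 6.15 and 6.78, with no call for either. Lefty1, an inhibitor of Nodal, read 53.6, 36.6 and 45.8 against 124, 119 and 104 (log2 fold change -1.29 ± 0.25, adjusted p = 0.00221). Of 8 trophoblast and extraembryonic genes 3 were lower and 1, the heart and trophoblast factor Hand1, was higher, a call lost without red-only A or double-negative A or B. The defining factor Cdx2 read 10.4, 11.02 and 11.5 against 10.7, 13.2 and 11.7 with no call. Bex1, the largest change among them, read 204, 130.2 and 211 against 754, 727 and 679.9 (log2 fold change -1.99 ± 0.28). Of 9 paraxial mesoderm and skeletal muscle genes 2 were lower and 1 higher. The higher gene, Meox1, lost its call without red-only A or double-negative B or C, and Lfng, a lower gene, without red-only A. Pax1, a factor of the vertebral mesoderm and pharynx, read 9.45, 8.26 and 7.17 against 28.7, 18.9 and 26.5 (log2 fold change -1.203 ± 0.14, adjusted p = 5.12e-05). Myod1 and Myog, the skeletal muscle factors, were under 7 units on all 6 arrays.

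BMP signals instruct heart mesoderm and their own feedback inhibitors. Of 25 genes of this pathway 13 were higher and 0 lower, with a median of 0.40 (1 was lower without red-only C). Of all genes 10.9% were called higher and 12.7% lower. Among ligands Bmp5 read 58.3, 77.4 and 79.7 against 8.399, 12.6 and 17.1 (log2 fold change 2.196 ± 0.17, adjusted p = 2.42e-06), and Bmp4, given above, rose in all 3 experiments. Bmp2 and Bmp7 rose by 1.08 and 0.78, while Bmp6 and Bmp10, the latter a ligand of trabecular heart muscle, did not pass at 0.08 and 0.14. The receptors Bmpr2 and Bmpr1a rose by 1.16 and 0.43. Of the inhibitors, Smad6, which blocks the pathway inside the cell, read 89.9, 82.7 and 74.6 against 29.9, 27.6 and 36.1 (log2 fold change 1.297 ± 0.12, adjusted p = 1.19e-05), Bambi, a decoy receptor, 189.7, 142 and 174 against 57.3, 52.6 and 75.8 (1.396 ± 0.16) and Bmper, a secreted modulator, 31.03, 42.4 and 45.4 against 10.4, 9.199 and 15.6 (1.47 ± 0.18). Nog, Chrd and Grem1, secreted antagonists, had log2 fold changes of -0.01, -0.07 and -0.17 and did not pass. The target gene Id2 rose by 0.61, and Id1 at 0.29 did not pass.

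In the FGF pathway 1 of 18 genes was higher and 3 were lower, a share near that of all genes (23.6% called in either direction), and with the block 2 were higher and 5 lower. The single higher gene, Fgf10, lost its call without any 1 of 5 arrays. Of the lower genes, the ligands Fgf5 and Fgf15 kept their calls without each of the 6 arrays. Fgf5, a ligand of the epiblast, read 20.7, 8.15 and 15.4 against 129.6, 116 and 104 (log2 fold change -2.73 ± 0.40, adjusted p = 0.000285), with red-only B lowest. Fgf15, a secreted FGF of neural and gut epithelium, read 12.9, 11.3 and 11.2 against 48.8, 42.2 and 55.7 (log2 fold change -1.73 ± 0.11, adjusted p = 3.68e-07). The feedback genes Spry2, Spry4 and Dusp6 did not pass, at 0.13, 0.31 and -0.23. Spry4 passed with the block (adjusted p = 0.0245).

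Of 21 Wnt pathway genes 4 were higher and 2 lower, against 10.9% and 12.7% of all genes, and with the block 7 were higher and 3 lower. Sfrp2, a secreted Wnt antagonist, read 9.503, 9.12 and 7.28 against 41.3, 41.1 and 39.2 (log2 fold change -1.81 ± 0.08, adjusted p = 2.70e-08), and the arrays of each group were close together. Wnt5a, a ligand that acts without beta-catenin and is used by the outflow tract, read 12.2, 18.9 and 21.1 against 7.33, 7.35 and 6.39 (log2 fold change 0.93 ± 0.19, adjusted p = 0.00319). The call of Wnt5a was lost without experiment B or C in all groups (adjusted p up to 0.0955). The other 3 higher genes, Wnt11, Dkk1 and Frzb, each lost their call without at least 4 of the 6 arrays in turn, so the count of higher genes fell to between 1 and 2 without red-only A, B or C or double-negative A or B. The count of lower genes fell to 1 without red-only A, red-only B or double-negative A. Axin2, a target of beta-catenin, read 12.2, 13.5 and 13.8 against 14.6, 14.3 and 14.4, and Lef1, its partner on DNA, read 33.3, 39.2 and 36.05 against 36.99, 35.8 and 33.1. Neither was called. Wnt2, a ligand of the inflow part of the heart, read 14.04, 25.9 and 31.6 against 5.304, 15.4 and 13 and passed only with the block (adjusted p = 0.156, and 0.000374 with it).

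Of 17 Notch pathway genes 2 were higher and 2 lower, and of 16 genes of retinoic acid 2 were higher and 2 lower. Both shares are near the 23.6% of all genes called. Of the 4 Notch pathway genes only Notch1, the receptor used by endothelium and endocardium, kept its call without each of the 6 arrays. Rfng, Dll3 and Lfng, a glycosyltransferase, a ligand and another glycosyltransferase of the pathway, lost theirs without at least 1 array. The lower count fell to 0 without red-only A and to 1 without red-only C or double-negative B, and the higher count to 1 without red-only B or C or double-negative A. Notch1 read 126, 178 and 126 against 41.2, 66.3 and 59.5 (log2 fold change 1.31 ± 0.28, adjusted p = 0.00427). The call of Notch1 was lost without experiment C in all groups (adjusted p = 0.0553). The targets Hes1 and Hey1 did not pass, and Hey1, at 0.58, passed with the block (adjusted p = 0.00133). Of the retinoic acid genes Crabp1, described above, was higher. The other higher gene, the retinol dehydrogenase Rdh10, lost its call without red-only C. Rarg, a retinoic acid receptor, read 14.6, 18.7 and 18.2 against 26.6, 26.99 and 23.6 (log2 fold change -0.49 ± 0.09), and Aldh1a2, the main synthetic enzyme of the embryo, was below the filter on low values. Of 24 Hox genes and cofactors 11 passed the filter and 3 of these were higher, against 10.9% of all genes. Meis2, a cofactor of Hox proteins, read 89.3, 89.2 and 93.6 against 32.4, 30.4 and 42.6 (log2 fold change 1.29 ± 0.17). Meis1, its paralog, read 16.1, 25.8 and 21 against 5.52, 6.65 and 8.09 (1.197 ± 0.23). The third was Hoxb2, at 0.56 ± 0.15, which lost its call without red-only B (adjusted p = 0.0536) or double-negative A (0.0721).

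Genes of the dividing cell were lower in red-only cells by small amounts. Of 28 tested 20 were lower and 2 higher, with a median of -0.44, against 12.7% and 10.9% of all genes. Without experiment B in all groups 11 were lower and without experiment C 9. Bub1, a spindle checkpoint kinase, read 57.2, 46.4 and 51.5 against 96.5, 95.6 and 101 (log2 fold change -0.87 ± 0.12, adjusted p = 0.000226), and Cdc20, the activator of the mitotic ubiquitin ligase, 279, 237 and 233 against 420.2, 402 and 444 (-0.75 ± 0.09). The 2 higher genes were cyclins D. Ccnd2 read 340.02, 397 and 440.1 against 219, 185 and 243 (log2 fold change 0.85 ± 0.15, adjusted p = 0.00108), while Ccnd1 fell by 0.45. Mki67, Cdk1 and Rrm2, further genes of dividing cells, did not pass, at -0.26, -0.13 and -0.11. Of 10 inhibitors of the cell cycle 6 were higher and 0 lower, and 3 were higher without double-negative B. Cdkn1c, an imprinted inhibitor of cyclin-dependent kinases, read 666, 865 and 1139 against 127, 133 and 188 (log2 fold change 2.53 ± 0.20, adjusted p = 2.56e-06), and Btg1, an antiproliferative protein, rose by 0.898 ± 0.11.

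Imprinted genes that set growth were higher. Of 14 tested 8 were higher and 0 lower, with a median of 0.90, against 10.9% and 12.7% of all genes. Dlk1, a paternally expressed membrane protein of immature cells, read 528, 637 and 622 against 113, 81.3 and 101 (log2 fold change 2.56 ± 0.19, adjusted p = 1.49e-06). Igf2, the fetal growth factor, read 3454, 4188 and 3608 against 908, 1215 and 1348 (log2 fold change 1.71 ± 0.16, adjusted p = 8.34e-06), and Igf2r, the receptor that clears it, 754, 622 and 729 against 158, 139 and 158 (2.18 ± 0.19). Plagl1, a transcription factor of the imprinted network, rose by 2.31 ± 0.18. Both Igf2 and its clearance receptor thus lay wholly above their double-negative arrays. Grb10, an adaptor that restrains growth, read 176, 496 and 302 against 77.1, 198 and 191 and passed only with the block (adjusted p = 0.166, and 0.000177 with it).

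Genes that respond quickly to stress and to cell dissociation were also higher. Of 16 tested 7 were higher and 1, the chaperone Hsp90aa1, was lower, against 10.9% and 12.7% of all genes. With the block 12 were higher. Junb read 166, 200.1 and 313 against 62.95, 87.2 and 109.7 (log2 fold change 1.33 ± 0.25, adjusted p = 0.00186), Nr4a1 107, 138 and 191 against 58.7, 70.6 and 59.2 (1.12 ± 0.21) and Ier2 699, 697 and 862 against 329.7, 397 and 467 (0.92 ± 0.16). These are immediate early genes. Red-only C was the highest array for each, and the summed level of the list was 4317 to 5714 units on red-only and 3393 to 3972 on double-negative arrays. Their part in the other differences was not tested.

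Among genes of energy metabolism the largest changes past the threshold were in glucose transporters. Of 17 glycolysis genes 4 were lower and 1 was higher (median -0.15), against 12.7% and 10.9% of all genes, and of 20 mitochondrial genes 1 was lower and 1 higher (median 0.02), of which the higher, citrate synthase (Cs), lost its call without each of the 6 arrays in turn. The glucose transporter Slc2a3 read 966, 486 and 989 against 2745, 2351 and 3039 (log2 fold change -1.79 ± 0.31, adjusted p = 0.000971). Another, Slc2a1, read 528, 336 and 497 against 1069, 868 and 1136 (log2 fold change -1.19 ± 0.22, adjusted p = 0.0016). Red-only B was the lowest array for both. Eno3, the enolase of muscle, read 153, 109 and 153 against 88.5, 54.05 and 83.4 (log2 fold change 0.86 ± 0.18, adjusted p = 0.00317). Ldha, Pgk1 and Hk2, enzymes of the main pathway, did not pass, at -0.07, -0.09 and 0.06.

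Several of the 15 largest increases and 15 largest decreases belong to no list. Cdo1, the enzyme that oxidises cysteine, read 111, 103 and 141 against 8.51, 8.67 and 10.2 (log2 fold change 3.197 ± 0.13, adjusted p = 2.70e-08). Rgs5, a regulator of G-protein signals known from pericytes, read 119, 96.98 and 125 against 7.81, 12.7 and 22.5 (log2 fold change 2.74 ± 0.22, adjusted p = 3.25e-06), and its other 3 probe sets passed too. Adgra2, an adhesion receptor of vessel growth, rose by 2.62 ± 0.29, and Sh3bgr, a heart and muscle gene, by 2.66 ± 0.20, although another probe set of Sh3bgr did not pass. On the other side Pim2, a survival kinase, read 51.1, 31.1 and 45.7 against 467, 496 and 393 (log2 fold change -3.31 ± 0.18, adjusted p = 1.79e-07). Mtm1, a lipid phosphatase known for a muscle disease, read 145, 62.3 and 108 against 1006, 706 and 735 (log2 fold change -2.97 ± 0.34, adjusted p = 5.12e-05).

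Red-only cells were then set against the other reporter-positive groups. These comparisons share the red-only arrays with the one above. Red-only and double-positive cells differed in 1656 genes (12.1%), red-only and green-only cells in 422 (3.08%). Hand2 read 175, 255 and 223 in double-positive and 84.8, 167 and 157 in green-only cells, neither of which differed from red-only cells past the threshold (log2 differences 0.04 ± 0.23 and 0.75 ± 0.23; adjusted p = 0.946 and 0.11). Tnnt2 was lower in red-only than in double-positive cells, which read 2214, 1609 and 1659, and than in green-only cells, which read 741, 895 and 920.03 (log2 differences -2.59 ± 0.20 and -1.50 ± 0.20; adjusted p = 5.14e-06 and 0.00139). Myl7 had the same order. Against green-only cells both calls were lost without experiment B in all groups (adjusted p = 0.0537 for Tnnt2 and 0.131 for Myl7). Mef2c read 439, 487 and 447 in double-positive cells, so that red-only cells were lower, with a log2 difference of -0.96 ± 0.22 (adjusted p = 0.0111). This call was lost without red-only A (0.0555) or without experiment B (0.0889) or C (0.0849) in all groups. In green-only cells Mef2c read 166, 296 and 232, without a call (log2 difference 0.05 ± 0.22, adjusted p = 0.958). Col5a1 read 574, 366 and 374 in double-positive cells, above red-only cells (log2 difference -0.64 ± 0.16, adjusted p = 0.0187). That call was lost without red-only A or B or without experiment B or C in all groups (adjusted p up to 0.114). In green-only cells Col5a1 read 240, 250 and 259, without a call (adjusted p = 0.807). Kdr read 118, 143 and 174 in double-positive and 172, 509.8 and 475 in green-only cells. It was higher in red-only than in double-positive cells by 1.38 ± 0.35 (adjusted p = 0.0217), a call lost without red-only B (0.0851) or red-only C (0.0555) or without experiment B (0.189) or C (0.115) in all groups, and did not differ past the threshold from green-only cells (adjusted p = 0.928). Cdh1 read 122, 39.04 and 39.5 in green-only cells, so that red-only cells were lower by 2.17 (adjusted p = 0.00395), and 6.76, 4.09 and 8.61 in double-positive cells, without a call. The call against green-only cells was lost without experiment B (0.0797) or C (0.0596) in all groups.

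A set of 108 genes (0.788% of those tested) was higher in red-only cells than in each of the 3 other groups. The count was 62 without red-only A and 64 without red-only B, 20 without experiment B and 29 without experiment C in all groups, and 181 with the experiment as a block. The 8 with the largest margins were Col3a1, Cdh11, Hsd11b2, Foxc1, Foxc2, Tgfbi, Col26a1 and Tcf21. Cdh11 read 59.7, 49.4 and 44.4 in red-only cells, against 6.87, 9.31 and 14.3 in double-negative, 5.13, 7.73 and 5.88 in green-only and 3.67, 6.97 and 7.98 in double-positive cells. No array of another group came near the lowest red-only value, and the log2 differences were 1.98 ± 0.19, 2.42 ± 0.19 and 2.44 ± 0.19 (adjusted p = 1.45e-05, 5.81e-05 and 6.44e-06). Hsd11b2, the enzyme that inactivates glucocorticoids, read 304, 204 and 206 in red-only, 55.5, 64.6 and 73.9 in double-negative, 78.7, 62.7 and 57.8 in green-only and 42.5, 46.7 and 53.8 in double-positive cells. Foxc1, a forkhead factor of head and heart mesoderm, read 69.6, 70.9 and 58 in red-only cells, and its arrays in the other groups lay between 11.9 and 22.5. Tgfbi, a secreted matrix protein induced by TGF-beta, read 185, 206 and 171 in red-only, 16.8, 25.8 and 30.4 in double-negative, 29.3, 39.7 and 50.4 in green-only and 81.6, 46.4 and 61.7 in double-positive cells. Col26a1, a collagen-like protein, read 27.9, 28.2 and 25.6 in red-only cells. Tcf21, a factor of epicardial and head muscle progenitors, read 56.5, 26.1 and 19.8 in red-only cells, where array A was more than 2-fold above the others, and Col3a1, given above, had the same pattern. Another probe set of Tcf21 did not pass against double-negative cells. Their calls against double-positive and green-only cells held without red-only A. Against green-only cells Col3a1 lost its call without experiment B (adjusted p = 0.135) or C (0.118) in all groups, and Tcf21 without B (0.0965). Against double-positive cells Tcf21 lost its call without experiment B (0.051). Foxc2 lost its call against green-only cells without red-only B (adjusted p = 0.0833) or red-only C (0.0529), and its calls against both groups without experiment B or C (0.0667 to 0.177). Etv2, Twist1, Snai2, Rgs5, Dlk1 and Col5a2 were also among the 108. Of these, Col5a2 kept both calls in every setting run, and the other 5 lost at least 1 call without experiment B or C in all groups. Etv2 read 21.3, 31.5 and 34.8 in green-only and 19.2, 23.6 and 28.3 in double-positive cells, and red-only cells were higher by 1.33 ± 0.16 and 1.58 ± 0.16 (adjusted p = 0.000659 and 3.50e-05). The call of Etv2 against green-only cells was lost without experiment B (0.0554).

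**Figure D5:**
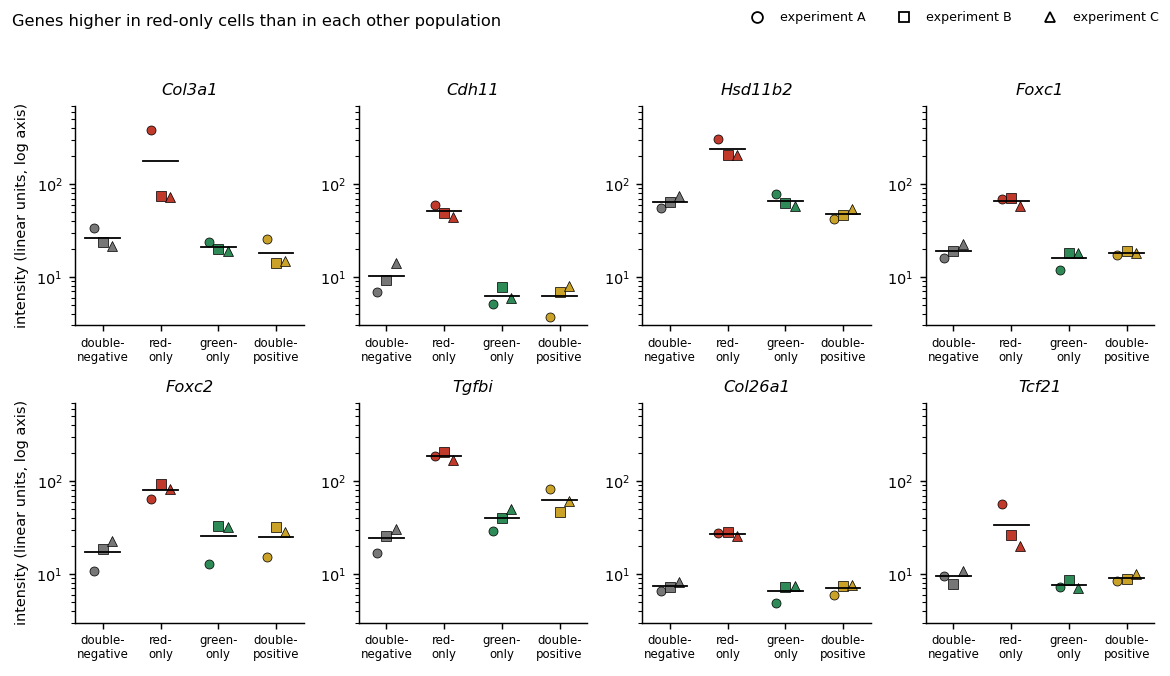
Intensity (y axis, linear units on a log axis) of the 8 genes with the largest margins among the 108 genes higher in red-only cells than in each other group, by population (x axis); the symbol gives the experiment and the bar the mean of 3 arrays. All 3 red-only arrays lie above every other array for each gene, and red-only A stands well above the other 2 red-only arrays for Col3a1 and Tcf21.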

How the data were processed

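Probe set intensities on 12 Affymetrix mouse arrays were used as the authors deposited them, on a linear scale. The submitters' processing notes name MAS5. A scaling target is not given in the sources used here. Values ran from 2.09 to 8547. Of 45101 probe sets, 64 were controls, 34945 had 1 gene symbol, 932 several and 9160 none in the platform annotation, and 162 symbols had no current RefSeq entry. For each of 18193 genes the probe set brightest on average was used.

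Values were taken as log2(value + 4.10), the addend being the 25th percentile of all values, so fold changes of dim genes are understated. Dim genes, averaging below 3.22 on this scale (the 40th percentile of probe sets), were dropped, which left 13698. The test was limma 3.58.1 in R 4.3.3 (1 mean for each of the 4 groups, 8 residual degrees of freedom, two-sided, Benjamini-Hochberg adjustment over all genes tested, threshold 0.05). It was tested on simulated data. An exact permutation test of 3 against 3 arrays cannot go below p = 0.1, so none was used. The number of arrays limits the precision.

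The experiment letter was taken as a pairing for the differences within experiments and for the fit with a block. The main test did not use it. Deviations from the group means of the 3 pairs of red-only and double-negative arrays with the same letter correlated at 0.183 to 0.361 across genes (0.116 to 0.424 over the 18 pairs of all groups). The fit with the letter as a block was an alternative. Other alternatives were another addend, quantile normalization, other filters, every probe set on its own, only the 6 arrays, an intensity trend, and the omission of single arrays or of whole experiments. The interaction and the comparisons with the other reporter-positive groups under further settings were added after seeing the data.

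Named genes were the 4 markers, the 15 largest increases and 15 largest decreases whose groups did not overlap and whose experiments had the same sign, up to 5 called members of each of 29 gene lists, members without a call, and the 8 genes with the largest margins over all 3 other groups. Bmp2, Bmp7, Bmpr1a, Bmpr2, Ccnd1, Col1a2, Foxo1, Hsp90aa1, Id2, Klf4 and Thbs1 were named after their values were seen. The groups, genes and lists were chosen with earlier results of these data known. The lists had 583 entries, of which 558 had a probe set used here and 501 were tested. Promoter windows came from RefSeq (GRCm38.p6), and plots were made in Python 3.11.15 (matplotlib 3.10.9).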

Additional observations from a re-analysis of the deposited data

Results flagged for a closer look

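The difference that goes with the red reporter was larger in green-negative than in green-positive cells for all 4 marker genes, by a direct test of the difference with limma. Below, without and with the green reporter mean negative and positive for it. For Hand2 it was 3.29 on the log2 scale as red-only minus double-negative and 0.70 as double-positive minus green-only, a gap of 2.58 ± 0.32 (SE, adjusted p = 0.000385). For Mef2c it was 3.24 without and 1.01 with the green reporter, a gap of 2.23 (adjusted p = 0.000700). The gap for Col5a1 was 1.54, from 2.31 without and 0.77 with it (adjusted p = 0.00104). For Etv2 it was 1.80 without and -0.25 with the green reporter, a gap of 2.05 (adjusted p = 0.000187). Among all genes 1433 of 13698 (10.5%) passed this test. The 4 genes were marker genes chosen with earlier results known. Red-only minus double-negative is itself part of the gap, so that choice may favour a positive gap. The 4 gaps are a description and no independent support.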

How the results depend on the processing

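None of the 135 named genes followed through the settings changed direction, nor did any gene called in both the main fit and an alternative. Named genes without a call, and those named after their values were seen, were not followed through all settings. Other genes that lost their call were not counted, nor was the fit of every probe set on its own. The medians of the Wnt, Notch, paraxial mesoderm and mitochondrial lists, all near 0, changed sign without single arrays. Between 3052 and 3313 genes passed with another addend, quantile normalization, either other filter, the intensity trend or the 6 arrays alone without a block, against 3229. The 6 arrays alone with the experiment letter as a block gave 3874. With every probe set tested on its own 4752 of 23232 passed, 2270 higher and 2482 lower. With the experiment letter as a replicate block over the 12 arrays 3887 passed, of which 3223 were also called without it. None of the 135 named genes followed lost its call there. Of the calls gained with it, those of genes whose values are printed are given beside the genes. Leaving out 1 array or 1 experiment gave 1766 to 2769 called, 827 to 1377 higher and 873 to 1488 lower. The lowest counts came without experiment B in all groups (1766, 827 and 939) or without C (1783, 910 and 873), where higher genes outnumbered lower ones. Without experiment A the counts were 2713, 1269 and 1444. The cause was not tested. Without experiment B the gap of Col5a1 between the reporter states was 1.46 with adjusted p = 0.0621. Over the arrays and experiments left out it ran from 1.40 to 1.68. Of 135 named genes with a call, 98 kept it in every setting in which they were tested and 111 without each of the 6 arrays. Single double-positive and green-only arrays were not left out. Genes near the background of the arrays, under about the array medians, cannot be ordered.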

Other observations

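Outside the lists, the genes next in size after those named above were looked at after their values were seen. Several with known roles in muscle were higher in red-only cells. Rbm24, an RNA-binding protein of heart muscle splicing, read 162, 232 and 297 in red-only and 33.98, 33.1 and 46.2 in double-negative cells (log2 fold change 2.46 ± 0.19, adjusted p = 2.78e-06). Unc45b, the chaperone of muscle myosin, read 45.9, 45.5 and 64.9 against 9.34, 3.8 and 5.78 (log2 fold change 2.45 ± 0.21), and Nexn, an actin-binding protein of the Z-disc, 71.8, 47.7 and 86.6 against 12.2, 11.9 and 10.6 (2.18 ± 0.21). Emilin1, a glycoprotein of elastic fibres, rose by 2.099 ± 0.21, and Mecom, a zinc finger factor of early vessels and blood stem cells, by 2.14 ± 0.16.

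Among the lower genes were an amino acid transporter, an enzyme of glycine breakdown and early neural and epiblast factors. Slc7a3, a transporter of arginine and lysine, read 39.9, 41.6 and 39.9 against 328, 278 and 244 (log2 fold change -2.68 ± 0.15, adjusted p = 1.79e-07). Gldc, the glycine decarboxylase, read 11.1, 10.1 and 13.98 against 73.3, 72.9 and 82.8 (-2.35 ± 0.27). Pou3f1, a factor of the epiblast and of neural cells, read 12.2, 14.7 and 13.5 against 70.7, 58.5 and 46.7 (log2 fold change -1.82 ± 0.12, adjusted p = 8.30e-07), and Hesx1, a factor of the forebrain and pituitary, 9.53, 6.06 and 7.65 against 48.7, 30.1 and 27.3 (-1.71 ± 0.23). For each of these genes the groups did not overlap.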
